A study of Citrus maxima and Citrus sinensis with 4 samples.

Results

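The response of *C. sinensis* ('Xuegan', a sweet orange) leaf miRNAs to B-toxicity was read from 1 B-toxic and 1 control small RNA library. B-toxic seedlings were watered with nutrient solution that held 400 μM boric acid and control seedlings with 10 μM, both for 15 weeks in sand culture, and mature leaves from one height on the plants were taken. RNA of 5 replicates was mixed into each library, so each side was 1 pool with no replicate check. The same 2 treatments of *C. grandis* (sour pummelo) stand beside them where the comparison needs it. All 699 precursor loci of the deposited table were used, which is the whole of its loci, and they hold 579 distinct mature sequences. Of these, 523 had at least 1 read in the *C. sinensis* libraries, 458 in the B-toxic and 482 in the control library. Reads of a mature sequence listed at several loci were counted once, which gave 214299 reads in the B-toxic and 305197 in the control library. Levels are given as RPM, these once-counted mature reads scaled to a sum of 1000000. With 0 reads, up to 3 reads could have been missed, which is 14.0 RPM in the B-toxic and 9.83 RPM in the control library. The tests below compare these libraries and not the conditions, and intervals cover counting error only, since each side was 1 pool. PCR copies of a molecule cannot be told apart in these reads, so even this error may be understated. The table holds no mRNA, so the leaf label was not checked against marker genes.

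Plant miRNAs are cut from hairpin precursors and guide Argonaute proteins to mRNAs with a near-perfect match, which are then cleaved or kept from translation. Mature miRNAs of 21 nt are the usual product of DICER-LIKE 1 in Arabidopsis, and most other small RNAs of 24 nt in Arabidopsis are made by DICER-LIKE 3 and guide DNA methylation. Boron is a micronutrient that cross-links pectin in the cell wall and that injures leaves in excess. Conserved miRNAs are those with the label of a known plant miRNA, a few of them from *C. sinensis* itself, and non-conserved ones carry names of the study, such as ci-miRN23, or the identifier of their locus.

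The sequences that differed most between the B-toxic and control libraries are printed first, 5′ to 3′, because the results on single miRNAs turn on them. Capitals mark the seed, bases 2 to 8.
ci-miRN23: uCGAAUGGauaaugaacgugu
ath-miR319a: uUGGACUGaagggagcuccc
ath-miR160a (scaffold_2_331813): uGCCUGGCucccuguaugccg
ci-miRN17: gUACUGUAgcugugagggggacgu
gma-miR319d: aGGACUGAcccaugaacuaucaga
ath-miR823: cGGGUGGUccccuggacacaagug
ci-miRN4: aAGCUGGAcuuguggagagugugc
ci-miRN3: aACGGGGGauucuuuugguuggg
aly-miR847-5p: aCUUGAUGaugcugcauu

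Of the 523 sequences tested, these 9 (1.72%) were called, which took a Benjamini-Hochberg FDR under 0.01 in Fisher's exact test (two-sided) and at least a 2-fold ratio between the libraries. The 6 that were higher under B-toxicity, 1.15% of those tested, were 24 nt long in 4 cases, 23 nt in the case of ci-miRN3 and 18 nt in that of aly-miR847-5p. The 3 that were lower, 0.574%, were 20 or 21 nt long. Together they held 4.31% of the mature reads of the B-toxic and 2.68% of those of the control library. With TMM or DESeq2's size factors, 4 were higher and 4 lower, since ci-miRN17 and ath-miR823 were no longer called and a further miR160 sequence was. The calls rest on counting error: with an assumed coefficient of variation between libraries of 0.2, edgeR's exact test called 3 of the 9, ci-miRN23, ci-miRN4 and ci-miRN3, and with 0.4 it called 0, with 5 sequences at an unadjusted p below 0.05.

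**Figure D1:**
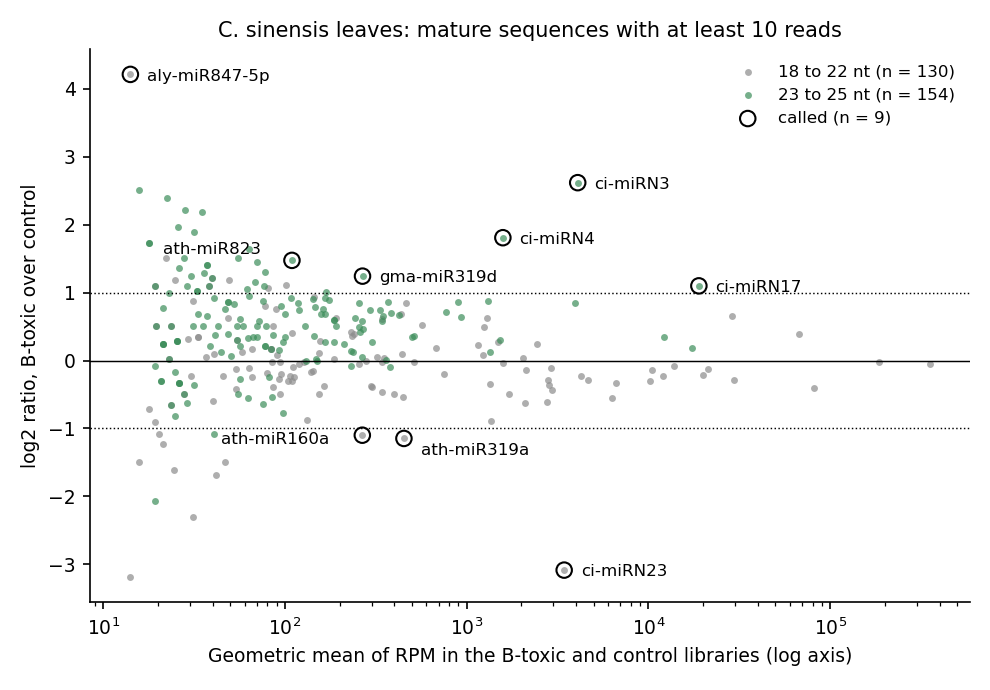
Each point is 1 of the 284 mature sequences with at least 10 reads in the *C. sinensis* libraries, by the geometric mean of its RPM in both libraries (log axis) and its log2 ratio of B-toxic over control. Circles mark the 9 called sequences and dotted lines a 2-fold ratio. Sequences of 23 to 25 nt lie mostly above 0, with a median of 0.51, and those of 18 to 22 nt around 0, with a median of -0.07.

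ci-miRN23, a non-conserved 21 nt sequence, had the largest decrease among the called sequences. It had 253 reads (1181 RPM) in the B-toxic library, against 3057 reads (10016 RPM) in the control library, a log2 ratio of -3.08 (95% interval -3.28 to -2.90) with an FDR too small to be represented. It was thus 8.48-fold lower under B-toxicity, and in *C. grandis* it had 8 reads in the B-toxic and 19 in the control library. The ratios of the species did not differ at an FDR below 0.01 (exact conditional test, adjusted p = 0.0214).

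ci-miRN3, ci-miRN4 and ci-miRN17, all non-conserved, were the abundant sequences that were higher under B-toxicity. ci-miRN3, a 23 nt sequence listed at 4 loci, had 2167 reads (10112 RPM) in the B-toxic and 503 (1648 RPM) in the control library, a log2 ratio of 2.62 (2.48 to 2.76). ci-miRN4 (24 nt) had 634 reads (2958 RPM) in the B-toxic and 258 (845 RPM) in the control library, a log2 ratio of 1.81 (1.60 to 2.02). In *C. grandis* both were on the other side of 0, since ci-miRN3 had 6813 RPM in B-toxic and 12762 RPM in control leaves and ci-miRN4 had 158 and 719 RPM in the same order. The difference between the species passed the test for each, with log2 ratios that were 3.52 higher in *C. sinensis* than in *C. grandis* for ci-miRN3 and 3.997 higher for ci-miRN4 (adjusted p = 1.28e-65 for ci-miRN4 and too small to be represented for ci-miRN3). ci-miRN17 (24 nt) was the ninth most abundant sequence of these leaves, with 5944 reads (27737 RPM) in the B-toxic and 3953 (12952 RPM) in the control library. Its log2 ratio was 1.10 (1.04 to 1.16), close to the 2-fold limit, and fell to 0.93 with DESeq2's size factors, which ended the call. In *C. grandis* it had far fewer reads, 15 reads in the B-toxic and 32 in the control library.

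A near copy of ci-miRN17 shows how far the ratio can differ between sequences with 1 seed. Relative to ci-miRN17, counted from 1 at its 5′ end, the sequence of scaffold_3_479557 carries U11C and U24C.
ci-miRN17: gUACUGUAgcugugagggggacgu
scaffold_3_479557: gUACUGUAgccgugagggggacgc
The near copy had 2924 reads in the B-toxic and 3281 in the control library, a log2 ratio of 0.34 (0.27 to 0.42), and this interval lies below that of ci-miRN17. It was not called.

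The precursors of the 4 non-conserved sequences differ in how well they fold, and are shown with the mature part in capitals, as deposited.
ci-miRN23 precursor: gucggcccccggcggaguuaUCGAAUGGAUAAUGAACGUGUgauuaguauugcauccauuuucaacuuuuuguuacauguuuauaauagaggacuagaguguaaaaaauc
ci-miRN3 precursor: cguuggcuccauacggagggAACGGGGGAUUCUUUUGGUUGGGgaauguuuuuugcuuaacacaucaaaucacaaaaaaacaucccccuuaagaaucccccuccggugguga
ci-miRN4 precursor: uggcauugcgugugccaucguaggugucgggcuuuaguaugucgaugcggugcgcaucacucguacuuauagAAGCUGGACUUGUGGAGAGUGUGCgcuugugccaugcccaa
ci-miRN17 precursor: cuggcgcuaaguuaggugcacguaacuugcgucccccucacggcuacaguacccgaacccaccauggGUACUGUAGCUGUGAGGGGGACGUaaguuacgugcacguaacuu
By RNAfold, the minimum free energy was -17.7 kcal/mol per 100 nt for ci-miRN23, -36.9 for ci-miRN3, -38.1 for ci-miRN4 and -80.1 for ci-miRN17, beside a median of -26.7 (quartiles -38.3 and -22.1) over all 699 loci. In these folds 47.6% of the mature bases of ci-miRN23 and 100% of those of ci-miRN17 were paired, against a median of 75% over all loci. ci-miRN23 was thus the weakest hairpin of the 4.

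Among the conserved sequences that were called, the larger counts belonged to the labels miR319 and miR160. ath-miR319a, which in Arabidopsis cleaves mRNAs of TCP factors of leaf growth, had 65 reads (303 RPM) in the B-toxic and 205 (672 RPM) in the control library, a log2 ratio of -1.15 (-1.57 to -0.74, FDR 9.71e-08 by Fisher's exact test). It is listed at 2 loci with unequal counts, and counted by the lower of them its log2 ratio was -0.99, under the 2-fold limit. gma-miR319d, a 24 nt sequence with another seed, had 88 reads in the B-toxic and 53 in the control library, a log2 ratio of 1.24 (0.73 to 1.76, FDR 9.90e-06 by Fisher's exact test). The 24 nt ath-miR823 had 39 reads in the B-toxic and 20 in the control library (log2 ratio 1.47, 0.66 to 2.33). In Arabidopsis miR823 is known to match CMT3, a DNA methyltransferase, but whether this 24 nt sequence does was not tested. Its name rests on a homology label. The precursor had a minimum free energy of -17.7 kcal/mol per 100 nt, with 62.5% of the mature bases paired. aly-miR847-5p rested on 13 reads in the B-toxic and 1 read in the control library, a ratio of 18.5 whose log2 interval runs from 1.48 to 9.62. According to the paper, its qRT-PCR of miR847 in *C. sinensis* did not match the sequencing. No sequence had at least 10 reads in 1 *C. sinensis* library and 0 in the other: the 41 sequences seen only in the B-toxic library had at most 5 reads, and the 65 seen only in the control library at most 6.

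**Figure D2:**
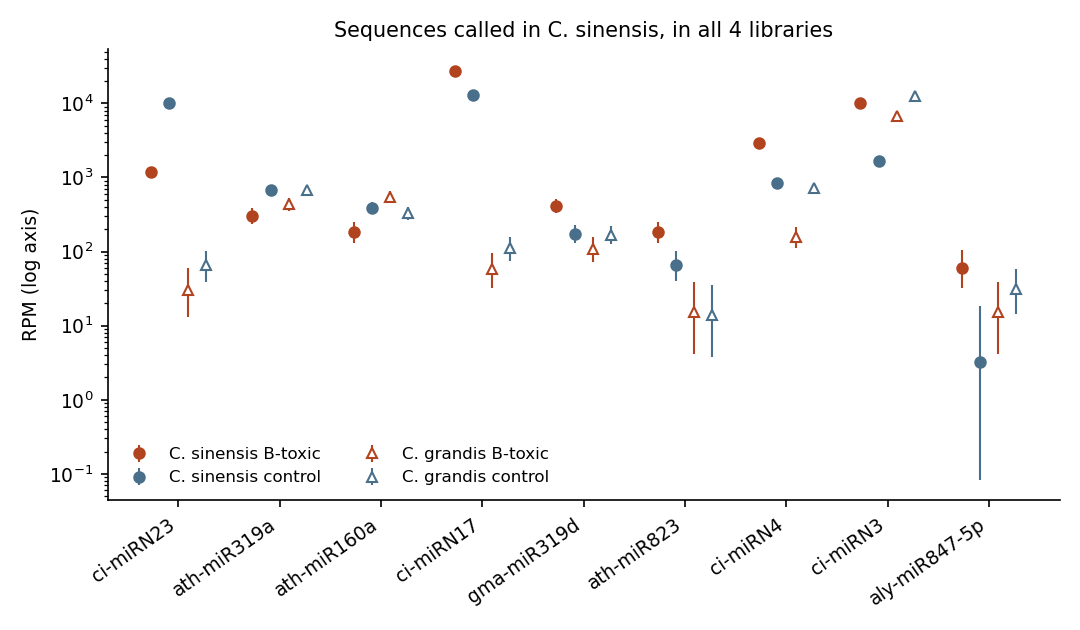
RPM (log axis) of the 9 called sequences in the 4 libraries, with exact 95% counting intervals; filled circles are *C. sinensis* and open triangles *C. grandis*, with each B-toxic library left of its control. ci-miRN23 is far higher in both *C. sinensis* libraries than in *C. grandis*, and ci-miRN4 lies on opposite sides of its control in the 2 species.

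Mature miRNA reads shifted between length classes in *C. sinensis*. The shares are of the once-counted mature reads of the listed loci, and not of all small RNA reads of a library. Mature sequences of 24 nt held 9.42% of the reads (20190 reads) in the B-toxic and 6.23% (19010 reads) in the control library, a log2 ratio of 0.60 (0.57 to 0.63). Those of 21 nt, the main class, held 52.5% in the B-toxic and 58.3% in the control library, a log2 ratio of -0.15 (-0.16 to -0.14). The share of 23 nt reads was 1.07% in the B-toxic and 0.204% in the control library, and ci-miRN3 made up 94.3% and 80.7% of them in the same order; without the called sequences the log2 ratio of this class was 0.66 in place of 2.39. The 20 nt share was 24.7% in B-toxic and 24.1% in control leaves and the 22 nt share 11.4% and 10.1%. In *C. grandis* the 24 nt share was 5.17% in the B-toxic and 6.09% in the control library, a log2 ratio of -0.24 (-0.27 to -0.21), and the difference between the species passed the exact conditional test (adjusted p = 9.44e-316). For reads of this length the paper describes the opposite direction in each species. Its description stands with the length distribution of unique clean reads, which are not limited to mature miRNA sequences. The mature reads used here therefore do not show how all small RNA of this length changed. The cause of the contrast was not tested. Fewer cells of a kind and less small RNA per cell cannot be told apart in these whole-leaf pools.

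**Figure D3:**
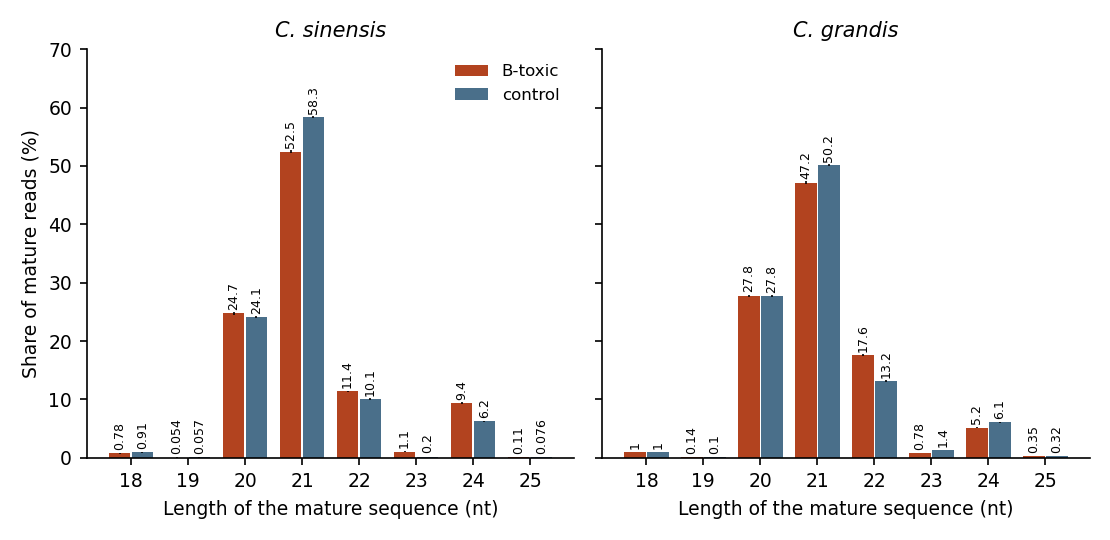
Share of once-counted mature reads (%) by length of the mature sequence (nt), with the B-toxic library left of the control library in each species and exact 95% intervals as error bars. In *C. sinensis* the 24 nt bar is higher under B-toxicity (9.42% against 6.23%), and in *C. grandis* it is lower (5.17% against 6.09%).

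The 24 nt shift was spread over many sequences. Among sequences with at least 10 reads in the *C. sinensis* libraries, the 143 of 24 nt had a median log2 ratio of 0.51 (quartiles 0.18 and 0.89), and 118 of them were above 0, or 82.5%, beside 64.4% of all 284 such sequences. The 83 of 21 nt had a median of -0.03 (quartiles -0.32 and 0.31), with 39 above 0. All 8 of 23 nt were above 0, from 0.22 to 2.62. Ratios of at least 2 were seen in 29 of the 24 nt sequences on the higher and 2 on the lower side, beside 14.8% and 4.58% of all 284. In *C. grandis* the 173 sequences of 24 nt had a median of -0.18 with 69 above 0. Sequences are not replicates, so no test was made over them.

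The 24 nt median was above 0 in every part into which the class was split, by reads, first base or label, though its size varied. By reads it was 0.51 for the 59 sequences with 10 to 29 reads, 0.51 for the 51 with 30 to 99 reads, 0.57 for the 29 with at least 100 and fewer than 1000 reads and 0.59 for the 4 with 1000 or more. By first base it was 0.51 for A (77 sequences), 0.88 for C (9), 0.35 for G (16) and 0.51 for U (41). Conserved 24 nt sequences had a median of 0.38 (61 sequences) and those without a label 0.59 (82). With the most abundant 10 sequences of the class left out, its reads still had a log2 ratio of 0.49 (0.43 to 0.55). Without the ratio limit 45 sequences (8.60%) had an FDR below 0.01 by Fisher's exact test. Of the 36 among them with a ratio under 2, 11 of the 17 that were higher and 0 of the 19 that were lower were 24 nt long. TMM and DESeq2's size factors moved every log2 ratio by -0.16 and -0.17, so the median of all 284 sequences was 0.27 as counted and 0.12 and 0.10 with these scalings, while the gap of 0.54 between the 24 nt and 21 nt medians does not depend on the scaling.

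**Figure D4:**
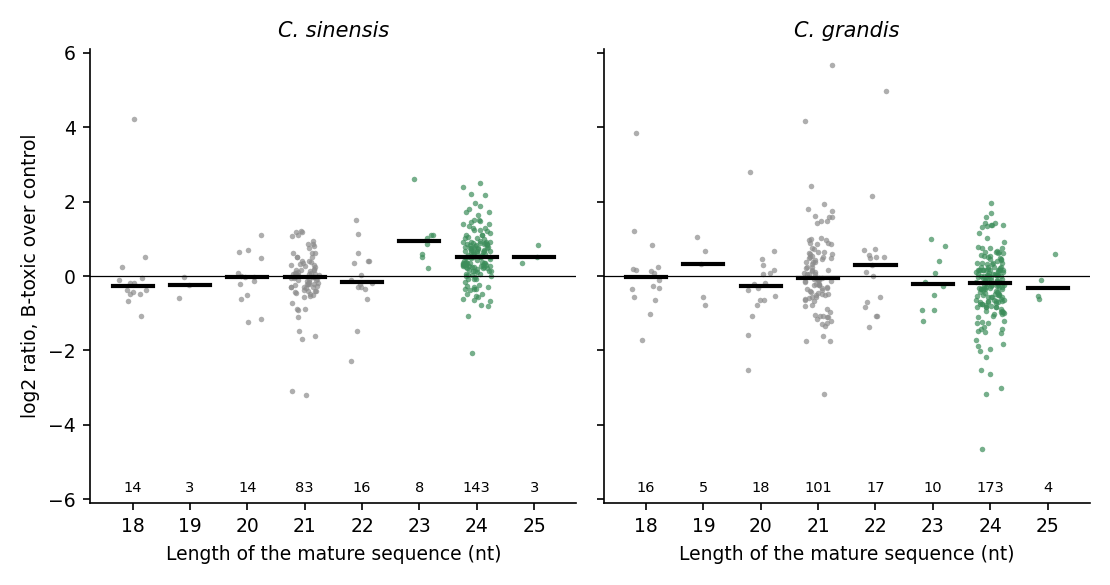
log2 ratio of B-toxic over control by length of the mature sequence (nt), 1 point per sequence with at least 10 reads in the libraries of that species, with black bars at the medians and the number of sequences along the bottom; a library at 0 reads is set at 3 reads. The 24 nt median is 0.51 in *C. sinensis* and -0.18 in *C. grandis*, and that of 21 nt is -0.03 and -0.06.

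Most of the abundant sequences of these leaves had ratios far from 2-fold, and they are shown because they carry the main part of the reads.
scaffold_2_271215: uUCUUAUUcagugacuguuua
cre-miR908.3: cCUACGUCgcucagauucgu
ath-miR165a: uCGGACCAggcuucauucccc
ath-miR167a (scaffold_5_956475): uGAAGCUGccagcaugaucuga
mdm-miR171o (scaffold_2_217057): gGGGAUGUagcucagauggu
ath-miR396a: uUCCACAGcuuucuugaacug
scaffold_2_326556: uCUUACCUaugccacccauucc
scaffold_6_1121987: uUGACGGAagauagagagcac
scaffold_8_1263994: aUUGGUCGggugcaccaccucagc
The 10 most abundant sequences, these and ci-miRN17, held 82.8% of the reads in each library. scaffold_2_271215 alone had 74510 reads in the B-toxic and 109708 in the control library, a log2 ratio of -0.05 (-0.06 to -0.03), and cre-miR908.3 had 39343 and 56891 reads in the same order, with a log2 ratio of -0.02. Neither came near the 2-fold limit. The unlabelled scaffold_2_326556 (4382 reads in B-toxic, 6772 in control) had a log2 ratio of -0.12, scaffold_6_1121987 (3947 and 6533) one of -0.22, and the 24 nt scaffold_8_1263994 (3954 and 4971) one of 0.18. The leading sequences of the small classes were scaffold_8_1284926 at 18 nt (543 reads in B-toxic, 1047 in control, log2 ratio -0.44), which resembles the start of a ribosomal RNA and whose origin was not tested, scaffold_2_223312 at 19 nt (73 and 106, -0.03) and smo-miR1098 at 25 nt (124 and 138, 0.36).

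Conserved reads were next summed by family, the number in the label, and 188 families had a read. Of these, 2 were called (1.06%), both by a single sequence, miR823 and miR847. Without the ratio limit 17 (9.04%) had an FDR below 0.01. Of these, 10 were among the 24 families with a read on the lists, which were chosen with earlier results known. Under B-toxicity 8 of the 10 were lower and 2 higher (miR167 and miR170/miR171), beside 9 lower and 8 higher among all 17, which include these 10. Lower by this rule were thus 8 of the 24 listed families with a read, beside 4.79% of all 188. The 20 listed families with at least 10 reads had a median log2 ratio of -0.11, and 14 were below 0, beside a median of 0.24 and 44 of 106 below 0 over all families with 10 reads. The directions of these counts, 14 lower and 6 higher, were the same under each of the 3 other scalings. The lists were not matched to all families by length or depth. Conserved sequences of 24 nt with at least 10 reads had a median of 0.38 and those of 21 nt one of -0.11. Whether this accounts for the contrast was not tested.

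Among the families that act on factors of leaf and shoot development, miR165/miR166, which restricts HD-ZIP III factors of the upper leaf side in Arabidopsis, had 15167 reads in the B-toxic and 28484 in the control library. Its log2 ratio was -0.40 (-0.43 to -0.37), nearly all from ath-miR165a. miR156/miR157, which holds down SPL factors of the adult phase in Arabidopsis, had 4529 reads in B-toxic and 7371 in control leaves (-0.19, -0.25 to -0.14), and its leading sequences were ath-miR156a (2136 and 3337 reads) and ath-miR157a of scaffold_1_84815 (1983 and 3466). miR396, which limits GRF factors of leaf cell proliferation in Arabidopsis, had 6080 reads in B-toxic and 10366 in control leaves (-0.26, -0.31 to -0.21), miR319 had 2562 and 4286 (-0.23, -0.30 to -0.16), and miR394, which acts on the F-box protein LCR in Arabidopsis, had 360 and 789 (-0.62, -0.81 to -0.44). These 5 families had an FDR below 0.01 and a ratio under 2. miR164, which acts on NAC factors in Arabidopsis, had 337 reads in B-toxic and 493 in control leaves, with an interval of -0.24 to 0.16 that spans 0. miR159 had 25 and 28 reads, most of them of the 24 nt bdi-miR159b-5p.2 (21 and 23), whose action was not tested.

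The miR170/miR171 family, whose Arabidopsis members act on GRAS factors, was higher under B-toxicity as a sum, with 8447 reads in the B-toxic and 7905 in the control library (log2 ratio 0.61, 0.56 to 0.65), but its members went apart. The 5 sequences labelled mdm-miR171o with the seed GGGAUGU held nearly all of these reads, 8297 in B-toxic and 7614 in control leaves. Their ratios were all above 0, but not all beyond counting error, and that of scaffold_7_1238283 (268 and 325 reads) had an interval of -0.01 to 0.47. The mdm-miR171o sequences of 18 and 20 nt resemble the start of a plant tRNA, from general knowledge and with no annotation in the table. The 24 nt sequence with this label (15 reads in B-toxic and 12 in control leaves) shares with them only bases near its 5′ end. The authors filtered tRNA out, and whether these reads come from a miRNA gene was not tested, so the sum may not stand for miR171. The ath-miR171b sequences with the seed UGAGCCG had 128 reads in B-toxic and 250 in control leaves, a log2 ratio of -0.46.
mdm-miR171o (scaffold_2_217057): gGGGAUGUagcucagauggu
mdm-miR171o (scaffold_7_1238283): gGGGAUGUagcucaguua
ath-miR171b (scaffold_1_74299): uUGAGCCGcgccaauaucacu
ath-miR171b (scaffold_2_309620): uUGAGCCGcgucaauaucucc
The leading mdm-miR171o sequence had 7749 reads in B-toxic and 7027 in control leaves. ath-miR171b of scaffold_1_74299 had 72 and 145 reads in the same order, and its ratio was 1.15 lower on the log2 scale than that of the leading sequence (Fisher's exact test of the pair, FDR 1.51e-07 over 37 pairs). Within the seed GGGAUGU, the scaffold_7_1238283 sequence was 0.42 lower than the leading one (FDR 0.00267). The other ath-miR171b sequence had 56 reads in B-toxic and 105 in control leaves and was 1.05 lower (FDR 4.11e-05).

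Of the auxin families, miR160 and miR167 act in Arabidopsis on different auxin response factors, ARF10, ARF16 and ARF17 for miR160 and ARF6 and ARF8 for miR167, and they lay on opposite sides of 0. miR160 had 274 reads in the B-toxic and 741 in the control library, a log2 ratio of -0.93 (-1.13 to -0.72, FDR 1.26e-19 by Fisher's exact test). It was just under the 2-fold limit and was called with TMM (-1.08) and with DESeq2's size factors (-1.09). Its 3 sequences share the seed GCCUGGC and all had ratios below 1, the third short of the FDR limit.
ath-miR160a (scaffold_6_1021446): uGCCUGGCucccuguaugcuu
ath-miR160a (scaffold_2_331813): uGCCUGGCucccuguaugccg
ath-miR160a (scaffold_4_632152): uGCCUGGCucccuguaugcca
With bases of the first numbered from 1 at its 5′ end, the second carries U20C and U21G and the third U20C and U21A. The first had 214 reads in B-toxic and 567 in control leaves (log2 ratio -0.90), the second 39 and 119 (-1.10) and the third 21 and 55 (-0.88, with an FDR of 0.122 by Fisher's exact test). The pairs did not differ from each other at an FDR below 0.01. In *C. grandis* the miR160 sum was 626 reads in B-toxic and 589 in control leaves, and the ratio was 1.17 lower on the log2 scale in *C. sinensis* than in *C. grandis* (adjusted p = 2.46e-18, exact conditional test). The paper names miR160a in both species among the exceptions to the match between its qRT-PCR and sequencing.

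miR167 had 17412 reads in the B-toxic and 19710 in the control library, a log2 ratio of 0.33 (0.30 to 0.36). The sum hid a split between its sequences, all with the seed GAAGCUG.
ath-miR167a (scaffold_5_956475): uGAAGCUGccagcaugaucuga
ath-miR167a (scaffold_9_1388622): uGAAGCUGccagcaugaucuua
ath-miR167a (scaffold_3_601367): uGAAGCUGccagcaugaucu
The leading 22 nt sequence had 16622 reads in B-toxic and 18041 in control leaves, a log2 ratio of 0.39 (0.36 to 0.42). The second, with G21U when the leading sequence is numbered from its 5′ end, had 482 and 1050 reads (-0.61, -0.77 to -0.46), and the 20 nt form had 308 and 619 (-0.50, -0.70 to -0.30). Set against the leading sequence, the second was 1.01 lower on the log2 scale (FDR 5.16e-36 by Fisher's exact test) and the 20 nt form 0.89 lower (FDR 6.35e-18), a comparison that no scaling of the libraries can change. Of the other auxin families, miR393, which acts on the TIR1/AFB auxin receptors in Arabidopsis, had 36 reads in B-toxic and 54 in control leaves. miR390 had 0 and 2, of a 24 nt sequence labelled osa-miR390-3p.

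In all, 37 pairs of a member and the leading member were compared in 14 families, and 12 of the 37 shared a seed. An FDR below 0.01 was found for 9 pairs, of which 3 shared a seed. Besides those of miR170/miR171 and miR167, they held the ath-miR319a (0.92 lower on the log2 scale than ppt-miR319a, the leading sequence of its family) and gma-miR319d (1.47 higher) sequences above. ptc-miR396e-3p, with 315 reads in B-toxic and 319 in control leaves, was 0.78 higher than ath-miR396a (5743 and 10013 reads), and the 24 nt gma-miR482a-5p, with 42 and 32 reads, was 1.13 higher than csi-miR482c (839 and 1396).

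The remaining lists held mostly small ratios. miR858, which acts on R2R3-MYB factors of phenylpropanoid genes in Arabidopsis, had 1276 reads in the B-toxic and 2279 in the control library (log2 ratio -0.33, -0.43 to -0.23), against 501 and 1893 reads in *C. grandis*, a ratio that was 1.43 higher in *C. sinensis*. miR482, which acts on mRNAs of NBS-LRR resistance proteins, had 1432 reads in B-toxic and 2387 in control leaves (-0.23, -0.32 to -0.13), led by csi-miR482c and csi-miR482b (546 and 950). miR858 and miR482 had an FDR below 0.01 with a ratio under 2. In the silencing pathway, miR403, which acts on AGO2 in Arabidopsis, had 2966 and 4500 reads (-0.09, FDR 0.0556 by Fisher's exact test), and passed the FDR limit with the other scalings, at a log2 ratio of -0.15 by clean reads, -0.25 by TMM and -0.26 by DESeq2's size factors. miR173 had 39 and 46, all of the 24 nt aly-miR173a-3p. miR168, which acts on AGO1 in Arabidopsis, had 1 read in each library, of a sequence labelled mtr-miR168a. These names rest on homology labels, and whether the sequences act as the Arabidopsis miRNAs do was not tested.

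In *C. sinensis*, 0 of the 6 mineral nutrition families with a read had, as counted, an FDR below 0.01 by Fisher's exact test, beside 9.04% of all 188 families. With 6 families this count does not set the list apart from the rest. Of the 6, 0 had an unadjusted p below 0.05, and each interval below spans 0. miR827, which acts on NLA in phosphate supply in Arabidopsis, had 588 reads in the B-toxic and 926 in the control library (-0.15, -0.30 to 0.01), and had an FDR below 0.01 with TMM (-0.30) and DESeq2's size factors (-0.31). Its reads were those of ath-miR827 (433 and 677 reads) and bdi-miR827-5p (150 and 244) in the main. miR2111, which acts on an F-box mRNA in Arabidopsis, had 93 and 139 reads (-0.46 to 0.32), most of them of mtr-miR2111l (76 and 105), which had 0 reads in both *C. grandis* libraries. The other sequence, ath-miR2111a-5p, has another seed and had 17 and 34 reads (log2 ratio -0.49, -1.42 to 0.39). miR395, which acts on ATP sulfurylases in Arabidopsis, had 60 and 94 reads with a log2 ratio of -0.14 (-0.63 to 0.34), which was -0.44 with every locus counted. Its leading sequence was the 24 nt tae-miR395b (28 and 40 reads), followed by zma-miR395m-5p (18 and 31), so the sum is mostly not of sequences labelled ath-miR395a. ath-miR395a of scaffold_3_446075 had 3 reads in B-toxic and 13 in control leaves (-4.06 to 0.26), against 224 and 47 reads in *C. grandis*, and the species differed (adjusted p = 2.31e-05, exact conditional test). By the paper's account, its qRT-PCR of miR395a in *C. sinensis* did not match the sequencing. Reads of the laccase families were few: miR397 had 7 reads in B-toxic and 4 in control leaves (log2 interval -0.66 to 3.54), miR408 had 6 and 7 (-1.56 to 2.08) and miR857 had 1 and 2 (-6.37 to 3.77), so a difference of less than several fold was not detectable at this depth. Of the miR397 reads, the 20 nt osa-miR397b held 2 in B-toxic and 0 in control leaves. The rest were of 24 nt sequences labelled sly-miR397. The paper reports from qRT-PCR that miR397a was lower in B-toxic than in control *C. sinensis* leaves. With so few reads the libraries cannot decide this.

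**Figure D5:**
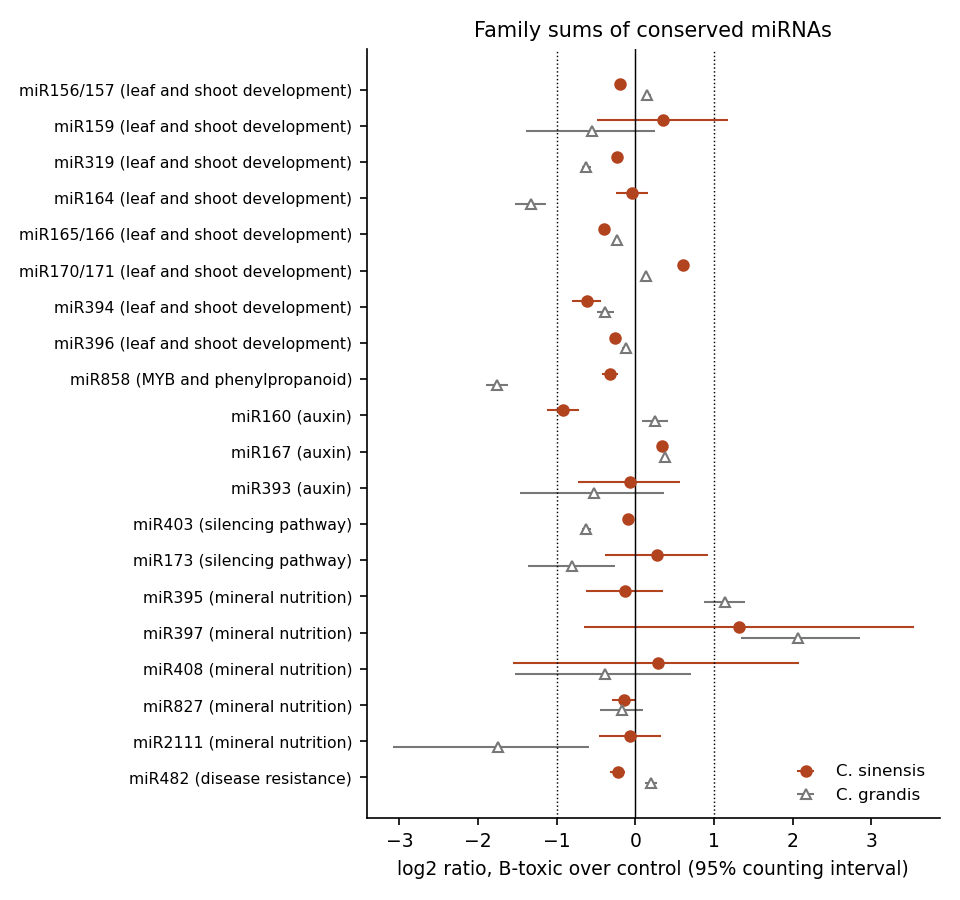
log2 ratio of B-toxic over control of the read sums of the 20 listed families with at least 10 reads in *C. sinensis* (filled circles), with *C. grandis* below each (open triangles) and 95% counting intervals; dotted lines mark a 2-fold ratio. In *C. sinensis* 14 of the 20 lie below 0 and miR160, at -0.93, is the lowest.

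The ratio of B-toxic over control differed between the species for 63 of 466 sequences (13.5%) and 22 of 160 families (13.8%) at an FDR below 0.01 by the exact conditional test. In *C. grandis* 36 of 522 sequences (6.90%) were called by the same rule that called 9 of 523 in *C. sinensis*. Of the 9, 6 had ratios that differed between the species, namely ath-miR160a, ci-miRN17, gma-miR319d, ci-miRN4, ci-miRN3 and aly-miR847-5p. For ath-miR319a and ath-miR823 the difference did not pass (adjusted p = 0.225 and 0.666, exact conditional test).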

How the data were processed

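Counts of mature reads per precursor locus and library were used as the authors deposited them, with no normalization. According to the methods, the authors made 1 small RNA library from 5 mixed replicates per condition, filtered reads and removed other RNA classes, searched miRBase 21 and predicted hairpins with MTide on the *C. clementina* genome, version 1.0. Neither the version of MTide nor the handling of multi-locus reads is given in the sources used here. Of the 579 distinct sequences, 69 stood at 189 loci, 43 of them with equal and 26 with unequal counts over their loci in *C. sinensis*. Each sequence was counted once, by its highest count over its loci in each library. Counting every locus would make the totals 243277 (B-toxic) and 346600 (control).

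Reads of each sequence and of each family sum were set against all remaining mature reads in Fisher's exact test (two-sided). P-values were adjusted by Benjamini-Hochberg over all with a read in the 2 libraries, and calls needed FDR < 0.01 and at least a 2-fold ratio. Intervals are exact (Clopper-Pearson, 95%). The families miR156 and miR157, miR165 and miR166, and miR170 and miR171 were joined. Members were compared with the leading member of their family by Fisher's exact test, and the ratios of the species by an exact conditional test. A library at 0 reads was set at 3 reads in medians. Alternatives were scaling by the clean reads, edgeR's TMM or DESeq2's size factors, every locus as deposited, the lowest count over loci, a minimum of 10 reads, no ratio limit and the exact test of edgeR where a coefficient of variation of 0.2 or 0.4 was assumed. Sequences named are all those called, the 10 most abundant, the leader of each length class and, in the listed families, the leading member and members with at least 50 reads; the near copy of ci-miRN17 and ath-miR395a were named after their values were seen. Members and lists were chosen with earlier results of these data known. Sequences are those of the deposited table; no genome was used. The tests were checked on simulated data that held counting error only, with no further variation between libraries. Python 3.11.15, SciPy 1.17.1, R 4.3.3, edgeR 4.0.16, DESeq2 1.42.0 and RNAfold 2.7.2 were used.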

Additional observations from a re-analysis of the deposited data

Results flagged for a closer look

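The ratio of B-toxic over control differed between the species, by the exact conditional test at an FDR below 0.01, for the following results, given as the log2 ratio in *C. sinensis* minus that in *C. grandis*. With 1 library per condition the test compares libraries. Among called sequences the difference was -1.86 for ath-miR160a of scaffold_2_331813, 2.03 for ci-miRN17, 1.89 for gma-miR319d, 3.997 for ci-miRN4, 3.52 for ci-miRN3 and 5.22 for aly-miR847-5p, which rests on 14 reads in *C. sinensis*. Among listed families it was -0.34 for miR156/miR157, -1.17 for miR160, 1.29 for miR164, -0.16 for miR165/miR166, 0.48 for miR170/miR171, 0.39 for miR319, -1.27 for miR395, -0.13 for miR396, 0.53 for miR403, -0.42 for miR482 and 1.43 for miR858. By length it was -0.065 for the share of 21 nt reads, 3.21 for 23 nt and 0.83 for 24 nt. No group had enough libraries for a search for a library far from the others.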

How the results depend on the processing

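No paired analysis was possible because each condition had 1 library. The number of sequences called higher and lower under B-toxicity, 6 and 3 as counted, was 23 and 22 by Fisher's exact test with no limit on the ratio. By edgeR it was 2 and 1 where a coefficient of variation of 0.2 was assumed and 0 and 0 with 0.4 (27 and 5 sequences at an unadjusted p below 0.05, and 103 by Fisher's exact test); under the other 6 alternatives it stayed within 1.5 times. The 3 calls gained with a minimum of 10 reads come with fewer sequences tested, 284. For 21 nt reads the log2 ratio was -0.19 with every locus as deposited, -0.37 without the most abundant sequence, -0.11 without the called sequences, -0.27 for labelled and -0.12 for unlabelled sequences. That of 23 nt was 2.56 with every locus, 0.66 without the called sequences and 0.62 for labelled ones, and that of 24 nt 0.41 and 0.48 for the last 2 of these. miR2111 changed sign to 0.044 with members of the leading seed only; the cause of these changes was not tested. The counts of families, member pairs and species differences stayed within 1.5 times. Depth limits what can be seen of miR397, miR408 and miR857.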
